A study of Mus musculus with 721 samples.

Results

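The genes described here are 9 genes of retinoid (vitamin A) transport, binding, oxidation and sensing, read in single cells of the embryonic mouse pancreas: Rbp4, Stra6, Crabp1, Crabp2, Adh1, Aldh1a1, Aldh1a2, Rara and Rarb. They were taken by gene symbol from a table of 32806 Ensembl genes, and each of the 9 symbols had 1 entry. They were picked because some of them had been seen to differ between stages and cell states of this series, so their values across stage, run, and the Neurog3, glucagon and insulin states are given as a description, with no test. Rbp4 was by far the most abundant of the 9, and it was widest spread in hormone cells. Crabp1 was found mostly at E11.5 and E12.5, Crabp2 until E14.5, and Adh1 in the largest share of cells at E15.5, while the receptors and the retinal dehydrogenases were seen in few cells.

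Retinol travels in blood on the carrier Rbp4, which binds transthyretin (Ttr), and the membrane receptor Stra6 takes retinol up from Rbp4. Inside cells, alcohol dehydrogenases such as Adh1 and the Rdh family oxidise retinol to retinal, retinal dehydrogenases (Aldh1a1, Aldh1a2) make retinoic acid from it, and Crabp1 and Crabp2 bind retinoic acid in the cytoplasm. Retinoic acid binds the nuclear receptors Rara and Rarb, which pair with Rxr receptors on DNA, and Cyp26 enzymes break it down. In the mouse embryo, retinoic acid made by Aldh1a2 in the mesoderm is needed for the early pancreas.

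The cells came from the pancreata of Neurogenin 3-eGFP mouse embryos on 5 days of development from E11.5 to E15.5. Neurogenin 3 (Neurog3) is the transcription factor that starts the endocrine programme, and its reporter marks cells that make it or recently made it. Cells positive for eGFP were sorted singly into plates, and their cDNA was made by SMART-seq and read in a first or a second run. No other allele, no treatment and no control genotype is named, and every group compared carries the reporter; the labels do not say which embryo a cell came from, or how many embryos were pooled.

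Day and run give 8 cell sets: E11.5 and E12.5 were each read in 1 run, and the other 3 days in 2 runs. Of 721 deposited cells, 658 were kept, with at least 100000 mapped fragments and at least 1500 genes at 1 FPKM (fragments per kilobase of transcript, scaled to a fixed number of mapped fragments). Sets held 68 to 94 kept cells, and their median depth was 480057 to 844416.5 fragments per cell. Of the 63 cells left out, 61 fell short on fragments. The deepest of those had 78296 fragments and the shallowest kept cell had 101675. The cells were not of 1 type: 272 were Neurog3 cells (Neurog3 at 10 FPKM or more and each of Gcg, Ins1 and Ins2 below 100 FPKM), 51 glucagon cells (Gcg at 100 FPKM or more), 57 insulin cells (Ins1 or Ins2 at 100 FPKM or more), 17 held both hormones, and 261 held neither Neurog3 nor a hormone at these levels. Cells past a hormone threshold were called by hormone at any level of Neurog3. The lowest Neurog3 level among Neurog3 cells was 13.1 FPKM, and the highest among the cells with neither was 9.44 FPKM. Of those 261 cells, 133 came from E11.5 and E12.5. The epithelial genes Epcam, Cdh1, Krt8 and Krt18 summed to 593 to 2376 FPKM in the Neurog3 cells of the 8 sets. The leukocyte genes Ptprc, Cd68, C1qa, C1qb, Csf1r and Tyrobp summed to 1.44 to 1340 FPKM there, with a median of 5.81 FPKM over the sets. The highest sum was that of E11.5. The part of cells with leukocyte transcripts in the E11.5 values of Neurog3 cells was not tested. Libraries of E12.5 run 1 and E13.5 run 1 stood apart: genes with transcripts of 55 to 60% GC lay at -0.70 and -0.45 on the log2 scale against genes of 40 to 50% GC there, and between -0.10 and 0.40 in the other 6 sets. Y-linked transcripts (Ddx3y, Eif2s3y, Uty or Kdm5d at 1 FPKM) were found in 95.9 to 100% of cells on the first 2 days and at E15.5. The 4 sets of the days between had them in 0% of cells and Xist in 95.7 to 100%, so a difference of E13.5 or E14.5 from the other days cannot be told apart from the sex of the embryos, while E11.5, E12.5 and E15.5 shared 1 pattern. All 96 index pairs recurred in more than 1 set, so a cell was identified by its set and its index pair together.

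Levels differed by orders of magnitude among the 9 genes. At the median depth, 1 fragment on a transcript of 1 kilobase equals 1.70 FPKM, so a cell is counted as having a gene at 10 FPKM or more. Rbp4 reached 10 FPKM in 376 of 658 kept cells (57.1%) and averaged 1699 FPKM. Adh1 reached it in 41 cells (6.23%), Crabp1 in 36 (5.47%), Crabp2 in 28 (4.26%), Rara in 21, Stra6 in 18 (2.74%), Rarb in 17, Aldh1a1 in 5 and Aldh1a2 in 3. Mean levels over all kept cells were 7.61 FPKM for Adh1, 6.71 for Crabp1, 4.41 for Crabp2, 2.22 for Stra6, 1.06 for Rara, 0.79 for Rarb, 0.57 for Aldh1a1 and 0.447 for Aldh1a2. Of the 658 cells, 228 had none of the 9 at 10 FPKM, 334 had 1, 82 had 2, and 14 had more. Cells are not replicates of a stage, so each comparison below is made over cell sets, and the binomial intervals (95%, exact Clopper-Pearson) cover counting error only. Where no cell had a gene, the share that 3 cells of the total would make is given as the limit a count of 0 allows, which lies below the upper end of the exact interval drawn in the plots of shares.

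Rbp4 lies on the minus strand of chromosome 19, from 38116620 to 38125321 (mm10), and the deposited transcript table split its reads between a pair of transcripts with different first exons. Rbp4-202, of 937 bases and starting at 38124828, averaged 1683 FPKM over the kept cells. Rbp4-201, of 1161 bases and starting at 38125248, averaged 16 FPKM. Among the 376 cells with Rbp4, Rbp4-201 made up less than 10% of the gene's level in 360 and more than 50% in 1. The level assigned by the quantification thus lay almost wholly on the downstream start in every set, where Rbp4-201 took from 0.795% to 5.39% of the gene's mean level. The RefSeq windows around the corresponding starts (GRCm38.p6, minus strand, 250 bases before the start and 50 after) are shown because they differ in base composition and in a TATA element: the window of the abundant transcript (chr19:38124762-38125061) has 72% GC and holds TATAAA, in capitals, whose first base is at -28, and the window of the minor one (chr19:38125272-38125571) has 40.7% GC and no TATAAA on either strand.
Rbp4, downstream start: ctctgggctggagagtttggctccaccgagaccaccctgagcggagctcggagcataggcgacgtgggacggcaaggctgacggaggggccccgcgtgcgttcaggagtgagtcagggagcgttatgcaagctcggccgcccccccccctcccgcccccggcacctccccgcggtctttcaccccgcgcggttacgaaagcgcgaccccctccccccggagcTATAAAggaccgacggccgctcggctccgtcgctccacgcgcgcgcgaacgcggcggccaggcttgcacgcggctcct
Rbp4, upstream start: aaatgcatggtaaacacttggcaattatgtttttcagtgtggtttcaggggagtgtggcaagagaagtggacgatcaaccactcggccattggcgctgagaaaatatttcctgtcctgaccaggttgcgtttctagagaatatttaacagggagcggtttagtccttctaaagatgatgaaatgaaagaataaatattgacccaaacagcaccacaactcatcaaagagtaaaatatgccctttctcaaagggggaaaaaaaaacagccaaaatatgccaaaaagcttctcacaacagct
TATAAA was present in 4473 of 32851 RefSeq mouse promoter windows of this length (13.6%), counting both strands. Neither window holds a direct repeat of the retinoic acid receptor half-sites described below.

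Rbp4 was present in nearly all hormone cells and in a minority of Neurog3 cells. It reached 10 FPKM in 47 of 51 glucagon cells (92.2%, interval 81.1 to 97.8%), in 51 of 57 insulin cells (89.5%, 78.5 to 96.0%), in 16 of 17 cells with both hormones (94.1%) and in 109 of 272 Neurog3 cells (40.1%, 34.2 to 46.2%). Mean levels were 3181, 3597, 15481 and 913 FPKM in that order, and medians were 1406, 2205, 2241 and 4.79 FPKM. The mean of Neurog3 cells therefore rests on few cells: 26 of the 272 were at 1000 FPKM or more, 37 between 100 and 1000, 46 between 10 and 100, 61 between 1 and 10, and 102 below 1. Of the 57 insulin cells, 36 were at 1000 FPKM or more and 4 below 1, and of the 51 glucagon cells 27 were at 1000 or more and 1 below 1. The highest level of any cell was 170461 FPKM, in a cell with both hormones at E15.5 run 1.

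**Figure D1:**
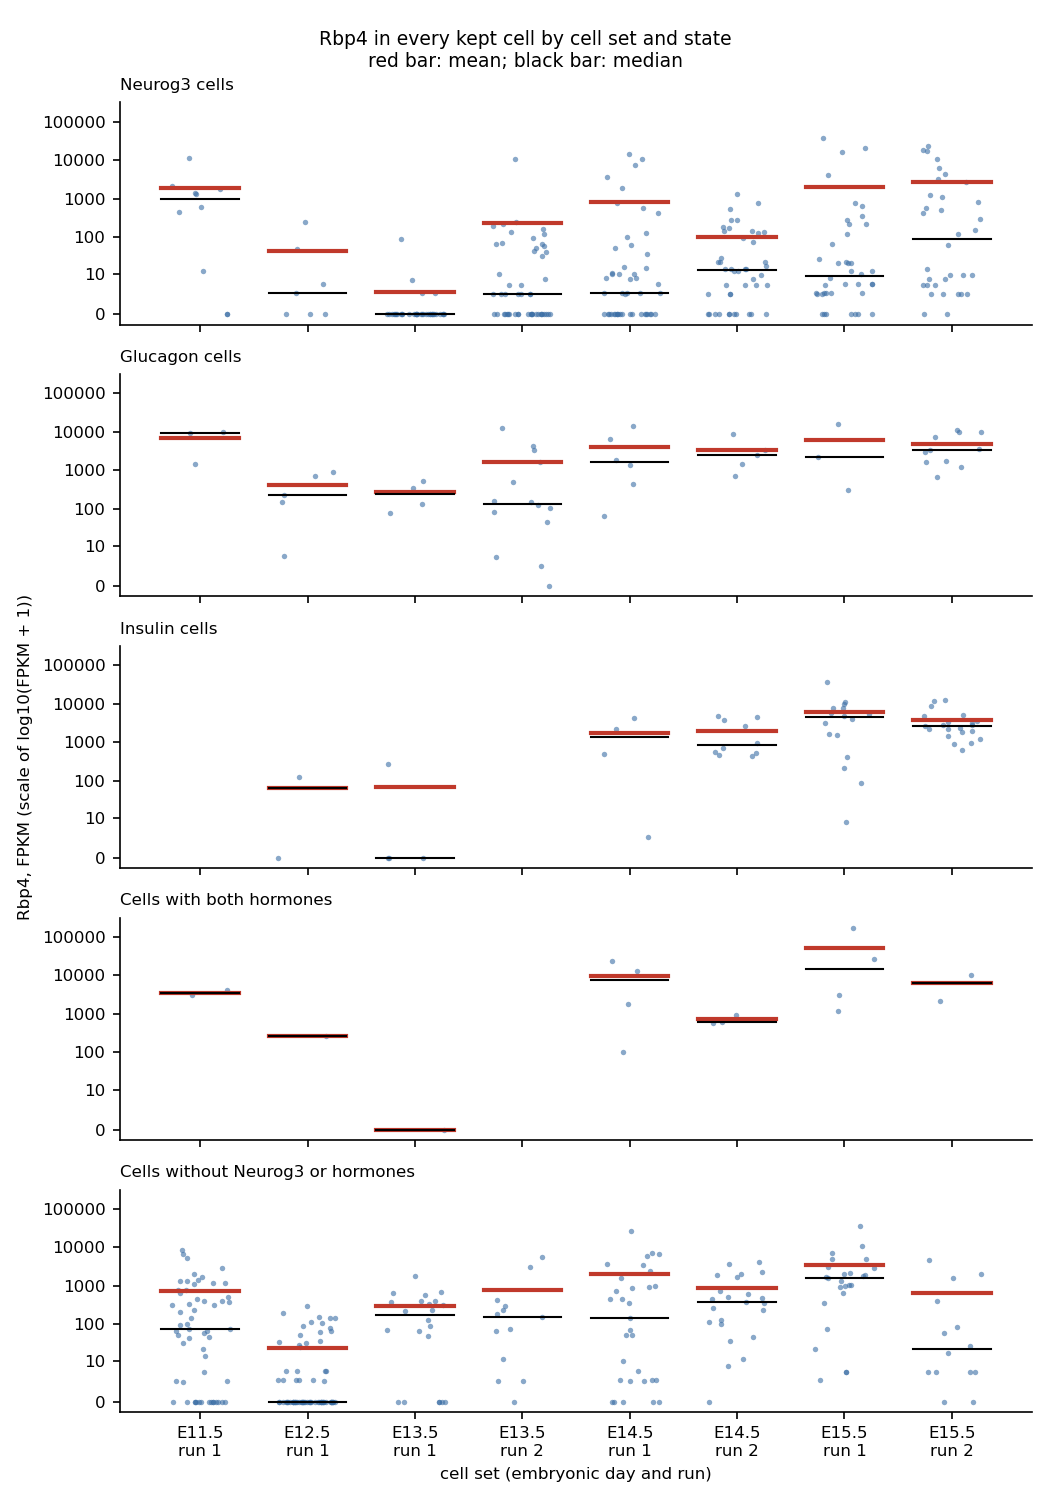
Rbp4 level of every kept cell (FPKM, on a scale of log10(FPKM + 1)) by cell set, with 1 panel for each state; red bars are means and black bars medians of a set. Glucagon cells reached 10 FPKM in 47 of 51 cells and Neurog3 cells in 109 of 272, and the means of Neurog3 cells lie far above their medians.

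Among the Neurog3 cells, the set means of Rbp4 were, in order of day and then run, 1893, 44, 2.76, 238, 807, 103, 2036 and 2684 FPKM, the first 2 values being E11.5 and E12.5 and the rest the paired runs of the later days. The medians of the same sets were 981, 2.57, 0, 2.39, 2.61, 13.2, 8.82 and 91 FPKM. The mean was high at E11.5, lowest at E13.5 run 1 and high again at E15.5, with runs of the same day apart by more than 7-fold at E13.5 and E14.5. Single cells set much of this: the highest cell carried from 25.3% (E15.5 run 2) to 88.2% (E13.5 run 1) of a set's summed level. In the same order, Rbp4 was present in 8 of 10, 2 of 7, 1 of 37, 16 of 51, 19 of 49, 24 of 44, 20 of 40 and 19 of 34 Neurog3 cells. The slope over days within Neurog3 cells was 0.66 ± 0.81 (SE) log2 units per day over 8 sets, and it lay between -0.02 without E15.5 run 1 and 2.23 without E11.5 run 1, and was -0.14 with the log2 values of single cells averaged, so no direction over the whole span can be read from it.

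In glucagon cells the set means of Rbp4 were 6793, 409, 277, 1676, 4182, 3424, 6323 and 4912 FPKM in that order. They came from 3, 5, 4, 14, 6, 5, 3 and 11 cells. Insulin cells, absent from E11.5 and from the second E13.5 run, had 63 FPKM at E12.5, 67.6 at E13.5, then 1762 and 1952 in the E14.5 runs and 6273 and 3699 in the E15.5 runs. These insulin means came from 2, 4, 4, 10, 16 and 21 cells. In both states the lowest means were those of E12.5 run 1 and E13.5 run 1. These are the sets whose libraries stood apart, and the part of the libraries in the low means was not tested. Every glucagon set mean was above that of the Neurog3 cells of its own set. Over the 5 sets with at least 5 cells of each state, the difference on the scale of log2(mean FPKM + 1) was 3.19, 2.81, 2.37, 5.05 and 0.87 (E12.5, E13.5 run 2, both E14.5 runs, E15.5 run 2), with a mean of 2.86 ± 0.48 (SE, n = 5). Insulin cells exceeded Neurog3 cells in 3 of 3 sets, by 4.24 at E14.5 run 2, 1.62 at E15.5 run 1 and 0.46 at E15.5 run 2, with a mean of 2.11 ± 0.66 (SE, n = 3) that became 1.04 without E14.5 run 2. Between insulin and glucagon cells the difference was -0.81 and -0.41 in the 2 sets with at least 5 cells of each. When the log2 values of single cells were averaged in place of FPKM, the differences from Neurog3 cells became 5.80 for glucagon and 5.88 for insulin cells. The 5 hepatic markers (Rbp4 is made in quantity by liver) summed to 15.9 to 300.1 FPKM in glucagon cells, 0.648 to 66.5 FPKM in insulin cells and 3.22 to 247 FPKM in Neurog3 cells. Alb, Afp and Fgb were at 0 in all 3 insulin sets, where Apoa1 and Apoa2 made up the sum. In glucagon cells Alb and Fgb were each at 0 in 2 of 5 sets and Afp in 0 of 5, and in Neurog3 cells Fgb was at 0 in 1 of 8 sets and Alb and Afp in 0 of 8. The 7 mesenchymal markers summed to 14.2 to 35.4 FPKM in glucagon cells against 0.296 to 8.06 FPKM in Neurog3 cells. Set means of the ghrelin gene Ghrl were 0 to 22303 FPKM in insulin cells (median 47.2), 0 to 410 FPKM in glucagon cells and 0 to 11083 FPKM in Neurog3 cells. Neurog3 itself averaged 4.64 in insulin and 3.05 in glucagon cells on the log2 scale, against 10.6 and 9.40 in the Neurog3 cells they were compared with. The part of these genes in the Rbp4 differences was not tested.

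Among the cells with neither Neurog3 nor a hormone, Rbp4 was present in 153 of 261 (58.6%). At E13.5 to E15.5, 97 of 128 such cells had it (75.8%), with set means from 293 to 3505 FPKM. Cells with the ghrelin gene Ghrl, or without it the somatostatin gene Sst, at 100 FPKM or more were set apart first. Of the rest, those with Fev (a transcription factor of later endocrine precursors) at 10 FPKM or more had Rbp4 in 46 of 66 cases (69.7%). The Ghrl cells had it in 7 of 10 cases, the Sst cells in 5 of 5, and those with none of these in 39 of 47 (83%). Mean Rbp4 levels of the Fev, Ghrl, Sst and remaining cells were 633, 6168, 6515 and 1270 FPKM. Rbp4 was thus not limited to glucagon or insulin cells in the later sets.

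The early cells with neither were of at least 2 kinds. Cells with the tip and acinar genes Cpa1 or Cel and without the leukocyte gene Ptprc numbered 30 on the first day and 33 on the second. Cells with Ptprc and without Cpa1 or Cel numbered 16 and 21. Of the tip-marked cells, 27 of 30 had Rbp4 at E11.5 (90%, interval 73.5 to 97.9%, mean 985 FPKM) and 17 of 33 at E12.5 (51.5%, 33.5 to 69.2%, mean 51.3 FPKM). Of the leukocyte-marked cells, 6 of 16 had it at E11.5 (37.5%, 15.2 to 64.6%), at a mean of 20.1 FPKM, and 0 of 21 at E12.5, which allows a share of up to 14.3%. Both the share and the level were higher in tip-marked than in leukocyte-marked cells on both days. Cells with neither mark had Rbp4 in 5 of 11 cases at E11.5, at a mean of 1020 FPKM and a highest level of 8413 FPKM. At E12.5, 0 of 21 cells with neither mark had it (up to 14.3% allowed). The fall from E11.5 to E12.5 cannot be told apart from a difference between the libraries of these sets. Leukocytes are not known for Rbp4, and whether these reads were carried over from other cells was not tested. At E11.5 their mean lay above the 10 FPKM at which a cell is counted, and their highest cell was at 93.7 FPKM, against a median of 390 FPKM in tip-marked cells. No such level was taken for the 6 later sets. The 5 hepatic markers summed to 63.2 and 109 FPKM in tip-marked and to 2.56 and 2.97 FPKM in leukocyte-marked cells, and their part in the difference was not tested.

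**Figure D2:**
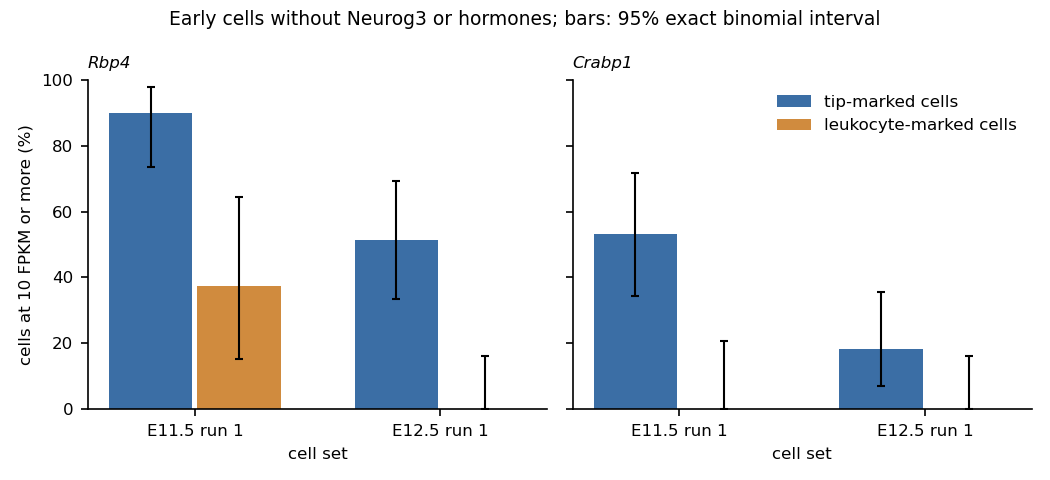
Share of early cells without Neurog3 or hormones that reached 10 FPKM of each gene (%, y axis) at E11.5 and E12.5, for tip-marked and leukocyte-marked cells, with 95% exact binomial intervals as bars. Rbp4 reached 90% of tip-marked cells at E11.5, and Crabp1 was seen in tip-marked and in no leukocyte-marked cells.

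Stra6, the receptor that takes retinol from Rbp4 (chromosome 9, 58129088 to 58153996, mm10), was scarce throughout. Of its 18 cells, 8 (44.4%) also had Rbp4, against 57.1% of all kept cells. The 8 sets held 5, 1, 1, 5, 3, 2, 1 and 0 Stra6 cells in order of day and run. The most abundant Stra6 transcript has 56.8% GC, a range in which E12.5 run 1 and E13.5 run 1 read low. The part of this difference between libraries in the Stra6 counts was not tested. Of the 18 cells, 11 were Neurog3 cells (of 272), 1 was a glucagon cell (of 51) and 0 were insulin cells (of 57, which allows a share of up to 5.26%). Set means in Neurog3 cells were 4.10, 0, 5.17, 5.35, 6.50, 1.04, 4.49 and 0.221 FPKM in order of day and run. These levels overlap from E11.5 to E15.5, and the difference of glucagon from Neurog3 cells, -0.94 ± 0.64 (SE, n = 5) on the log2 scale, was below 0 in 4 of 5 sets and 0 in the other. The differences were 0, -0.45, -2.91, -1.03 and -0.29 (E12.5, E13.5 run 2, both E14.5 runs, E15.5 run 2), and the mean became -0.44 without E14.5 run 1.

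Crabp1, a retinoic acid binding protein (chromosome 9, 54764748 to 54773110), was an early gene in these cells. The E11.5 set held it in 21 of 73 cells (28.8%, interval 18.8 to 40.6%, mean 39.6 FPKM), the E12.5 set in 9 of 90 (10%, 4.68 to 18.1%, mean 12.2 FPKM), and the 6 later sets in 6 of 495 (1.21%, 0.446 to 2.62%). The E15.5 sets, which shared the Y-linked pattern of the early ones, held it in 1 of 88 and 1 of 82 cells (1.14% and 1.22%). Within the Neurog3 cells, set means were 42.4, 33.3, 4.36, 1.14, 0, 0.331, 3.89 and 0.171 FPKM in order of day and run, so both early sets lay above all 6 later ones. The slope over days was -1.02 ± 0.32 (SE) log2 units per day and stayed between -1.48 and -0.79 when each set was left out. The highest set means among later Neurog3 cells each came from 1 cell with the gene. Crabp1 was at 10 FPKM in 0 of 51 glucagon cells (up to 5.88% allowed), in 1 of 57 insulin cells and in 0 of 17 cells with both hormones. In tip-marked cells with neither Neurog3 nor a hormone, 16 of 30 had it at E11.5 (53.3%, mean 78.5 FPKM) and 6 of 33 at E12.5 (18.2%, mean 26.2 FPKM), while 0 of 16 and 0 of 21 leukocyte-marked cells did (up to 18.8% and 14.3% allowed). The 5 tip and acinar markers were also highest in the early Neurog3 cells, summing to 484 FPKM at E11.5 and 3255 FPKM at E12.5 against 14.51 to 105 FPKM in the 6 later sets, and their part in the Crabp1 pattern was not tested. The Crabp1 transcript has 57.4% GC, a range in which E12.5 run 1 read low, so the step from E11.5 to E12.5 cannot be told apart from that difference between libraries.

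**Figure D3:**
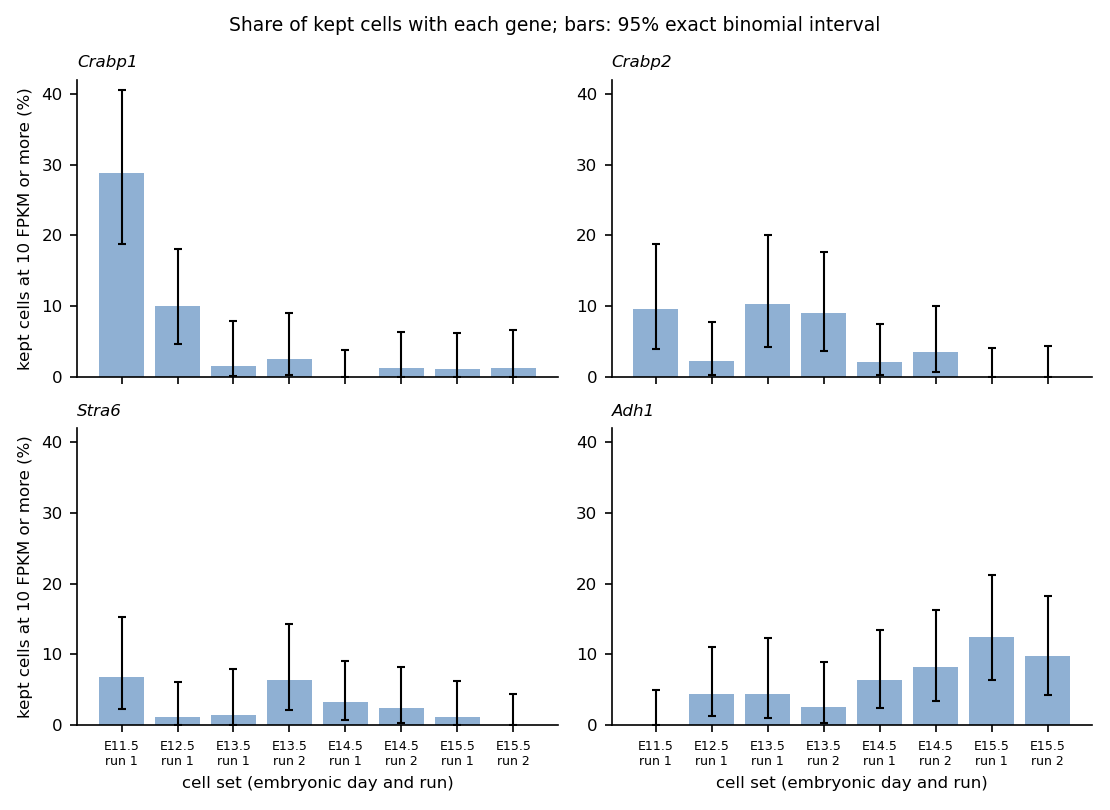
Share of kept cells (%, y axis) with each of Crabp1, Crabp2, Stra6 and Adh1 at 10 FPKM or more, by cell set in order of embryonic day and run, with 95% exact binomial intervals as bars. Crabp1 is at 28.8% at E11.5 and between 0 and 2.56% from E13.5 on, Crabp2 is at 0 in both E15.5 sets, and Adh1 is highest in the E15.5 sets.

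Crabp2, the family member that carries retinoic acid to its nuclear receptors (chromosome 3, 87948666 to 87953376), lasted longer. In order of day and run, 7, 2, 7, 7, 2, 3, 0 and 0 cells had it, and the E15.5 counts of 0 of 88 and 0 of 82 allow shares of up to 3.41% and 3.66%. Set means in Neurog3 cells were 9.46, 0.353, 26.6, 4.08, 6.33, 4.24, 0 and 0 FPKM. The E15.5 sets were at 0 in both runs and the sets before them overlapped one another without order. Glucagon cells had Crabp2 in 3 of 51 cases, all at E13.5 run 2, and insulin cells in 0 of 57 (up to 5.26% allowed). Crabp1 and Crabp2 shared 4 cells, which is 11.1% of the Crabp1 cells and 14.3% of the Crabp2 cells.

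Adh1, an alcohol dehydrogenase that can oxidise retinol (chromosome 3, 138260991 to 138307022), was seen more in later sets. The E11.5 set held it in 0 of 73 cells (up to 4.11% allowed), and the sets after it in 4 of 90, 3 of 68, 2 of 78, 6 of 94, 7 of 85, 11 of 88 and 8 of 82. Set means over all kept cells were 0.132, 3.25, 5.56, 3.42, 6.29, 8.47, 16.8 and 15.47 FPKM, the E15.5 means being the highest in both runs. Insulin cells were also most numerous at E15.5 (16 and 21 cells), and the part of the mix of states in this rise was not tested. Within Neurog3 cells the slope over days was 0.60 log2 units per day, from few cells with the gene. With each set left out in turn, Adh1 passed the filter of 1 FPKM in 7 fits. In these the slope lay between 0.53 (without E12.5 run 1) and 0.71 (without E15.5 run 2). Without E15.5 run 1, which had the highest mean in Neurog3 cells, Adh1 fell below the filter and no slope was fitted. By state, it was in 6 of 272 Neurog3 cells (2.21%, interval 0.814 to 4.74%), 5 of 57 insulin cells (8.77%, 2.91 to 19.3%), 9 of 51 glucagon cells (17.6%, 8.40 to 30.9%) and 6 of 17 cells with both hormones (35.3%, 14.2 to 61.7%). Glucagon cells exceeded Neurog3 cells in 4 of 5 sets, the differences being 2.45, 2.12, -1.50, 2.72 and 5.74 (E12.5, E13.5 run 2, both E14.5 runs, E15.5 run 2), with a mean of 2.31 ± 0.93 (SE) on the log2 scale that became 1.45 without E15.5 run 2. Insulin cells exceeded Neurog3 cells in 3 of 3 sets, by 1.04, 1.79 and 2.96, with a mean of 1.93 ± 0.62 (SE). These sets rest on 1 to 4 hormone cells with Adh1 each, or none at E14.5 run 1. Of the 41 Adh1 cells, 34 also had Rbp4 (82.9%) and 0 had Crabp1.

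The retinal dehydrogenases, which make retinoic acid, were nearly absent at this depth. Aldh1a1 (chromosome 19, 20601961 to 20643462) was at 10 FPKM in 5 cells, the highest a Neurog3 cell of E14.5 run 2 at 225 FPKM, and Aldh1a2 (chromosome 9, 71215789 to 71296243) in 3 cells, the highest at 112 FPKM. At the median depth, 1 fragment equals 0.830 FPKM for the main Aldh1a1 transcript and 0.752 FPKM for that of Aldh1a2, so lower levels rest on a few fragments in a cell. Aldh1a1 has a near copy, Aldh1a7, which averaged 0.249 FPKM over the kept cells. The labels do not say how reads matching both were shared out.

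The receptors Rara (chromosome 11, 98927818 to 98974942) and Rarb (chromosome 14, 16430842 to 16575472) were also sparse. Rara was at 10 FPKM in 21 cells, 10 of them at E11.5 and 0 among 57 insulin cells. At E11.5, Rara was in 6 of 30 tip-marked cells (20%), 3 of 11 cells with neither mark (27.3%) and 0 of 16 leukocyte-marked cells (up to 18.8% allowed). The most abundant Rara transcript has 58.7% GC, a range in which E12.5 run 1 and E13.5 run 1 read low. The part of this difference between libraries in the Rara counts was not tested. Rarb was at 10 FPKM in 17 cells, 8 of them at E11.5 or E12.5. Rarb is itself a classic retinoic acid target, so its promoter window is shown (RefSeq, GRCm38.p6, chr14:16575427-16575726, minus strand). Capitals mark the direct repeat with a spacing of 5 bases (DR5) found from -53 to -37 before the start.
Rarb: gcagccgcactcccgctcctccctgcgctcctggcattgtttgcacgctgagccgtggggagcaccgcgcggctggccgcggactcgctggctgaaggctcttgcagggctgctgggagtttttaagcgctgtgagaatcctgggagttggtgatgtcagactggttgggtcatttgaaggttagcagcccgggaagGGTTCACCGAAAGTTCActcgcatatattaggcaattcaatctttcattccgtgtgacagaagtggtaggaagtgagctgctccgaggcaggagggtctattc
The search looked on both strands for direct repeats of half-sites 2 bases (DR2) or 5 bases (DR5) apart. A half-site was the consensus AGGTCA, or the variant form written AGTTCA, or the form GGGTCA, or as found in the Rarb window GGTTCA, in any combination. Among the 16 RefSeq windows of the 8 members that have one, the Rarb repeat was the only match, while 32 of all 32851 windows hold a DR5 (0.0974%) and 88 a DR2 (0.268%). The Rara transcript with the highest mean level starts 9878 bases from the nearest RefSeq start, so its start lay outside the windows searched. Crabp2 is named only. A match is a description of the sequence, and no match says only that these letters are not in the window.

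Fev marks endocrine precursors that have moved on from the peak of Neurog3, and the members were not chosen on it, so Neurog3 cells with Fev at 10 FPKM or more were tested against those below it in the 6 later sets. Across all 15055 genes tested, 203 passed (1.35%; limma, two-sided, Benjamini-Hochberg adjusted p under 0.05), 87 higher and 116 lower in Fev-high cells. Of the 9 members, 6 had a mean of at least 1 FPKM and were tested, and none passed. An unadjusted p under 0.05 was found for 2 of the 6, Crabp2 and Stra6, and for 2130 of all genes tested (14.1%). Set means of Crabp2 were 0, 1.89, 0, 0, 0 and 0 FPKM in Fev-high and 33.9, 5.38, 9.13, 6.01, 0 and 0 FPKM in Fev-low cells. Crabp2 was lower in Fev-high cells in the 4 sets that had it and at 0 on both sides in the E15.5 sets, a difference of -2.07 ± 0.73 (SE, n = 6) on the log2 scale (limma, adjusted p = 0.229). For Stra6 the set means were 0.0868, 0.835, 0.0465, 0.0970, 0 and 0.469 FPKM in Fev-high and 6.57, 8.03, 9.35, 1.44, 6.42 and 0 FPKM in Fev-low cells. Fev-high cells were thus lower in 5 of 6 sets, by -1.98 ± 0.59 (SE) on the log2 scale (limma, adjusted p = 0.152), and none of the 86 Fev-high cells of all sets reached 10 FPKM of Stra6, against 11 of 186 Fev-low cells.

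**Figure D4:**
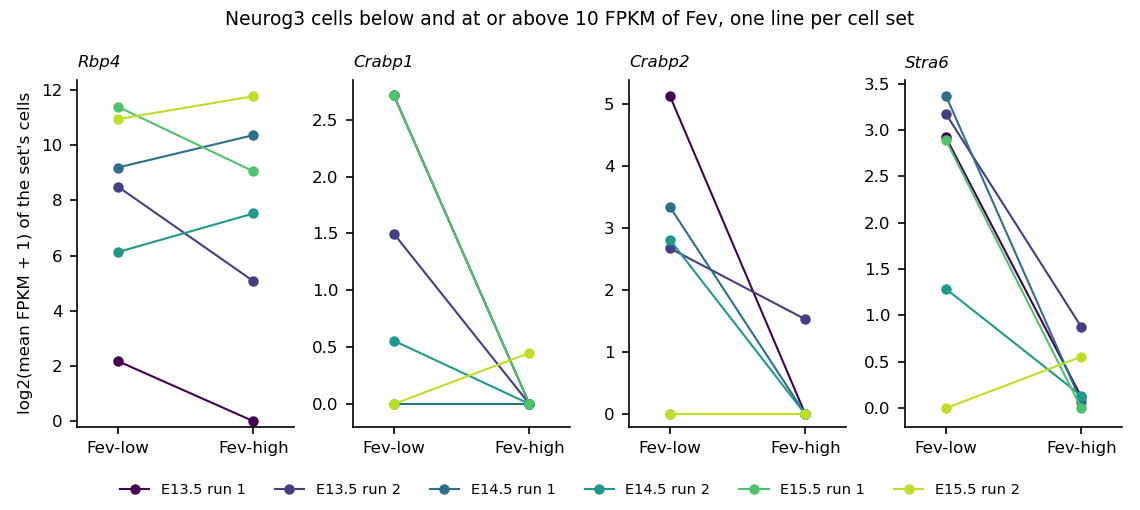
Level of 4 members, as log2(mean FPKM + 1) of a set's cells (y axis), in Neurog3 cells below (Fev-low) and at or above (Fev-high) 10 FPKM of Fev, with 1 line for each of 6 cell sets. The Stra6 lines go down in 5 of 6 sets and the Crabp2 lines in 4, with no adjusted p under 0.05, and the Rbp4 lines go both ways.

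For Rbp4 the differences between Fev-high and Fev-low cells were -2.18, -3.42, 1.17, 1.40, -2.34 and 0.83 over the 6 sets, with a mean of -0.76 ± 0.64 (SE; limma, adjusted p = 0.637). Rbp4 was higher in 3 sets and lower in 3. By share of cells, 44 of 86 Fev-high (51.2%) and 65 of 186 Fev-low cells (34.9%) had it over all sets, and averaging the log2 values of cells turned the difference to 0.98. Crabp1 differed by -1.17 ± 0.59 (limma, adjusted p = 0.416), Adh1 by 0.21 ± 0.78 (adjusted p = 0.942) and Aldh1a1 by 0.33 ± 0.69 (adjusted p = 0.874). Ghrl lay at 0 to 1.96 FPKM in Fev-high and at 181 to 15832 FPKM in Fev-low cells of these 6 sets, and its cells' part in the Rbp4 result was not tested.

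Neurog3 cells in cycle, with the proliferation genes Mki67 or Top2a at 10 FPKM or more, could be set against the others in 4 sets. Of 15369 genes tested, 10 passed (0.0651%; limma, adjusted p under 0.05), all lower in cycling cells, and 984 had an unadjusted p under 0.05. Among the members, Rbp4, Crabp2 and Stra6 were tested and none passed, nor did any have an unadjusted p under 0.05. Rbp4 differed by 0.97 ± 0.93 (SE, n = 4; limma, adjusted p = 0.850), higher in 2 sets and lower in 2, and by -0.43 without E13.5 run 2. Crabp2 differed by -1.80 ± 0.98 (limma, adjusted p = 0.819) and Stra6 by -0.30 ± 0.96 (limma, adjusted p = 0.965), while the median over all genes tested was -0.29.

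Of 62 other genes of retinoid transport, oxidation, breakdown and response, 61 had an entry, 35 averaged at least 1 FPKM over the kept cells and 15 at least 10 FPKM. Ttr, the partner of Rbp4 in blood, led at 1038 FPKM, followed by the alcohol dehydrogenase Adh5 at 187 FPKM, the retinal reductase Dhrs4 at 121 FPKM, the fatty acid and retinoic acid binding protein Fabp5 at 83.7 FPKM and the retinoic acid responsive homeobox gene Meis2 at 46.7 FPKM. The retinal reductase Dhrs3 averaged 17.6 FPKM, the receptor partner Rxra 2.59 and the retinol dehydrogenase Rdh10 0.661 FPKM. Breakdown enzymes were at the floor: Cyp26a1 averaged 0.0307, Cyp26b1 0.0624 and Cyp26c1 0.00679 FPKM.

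**Figure D5:**
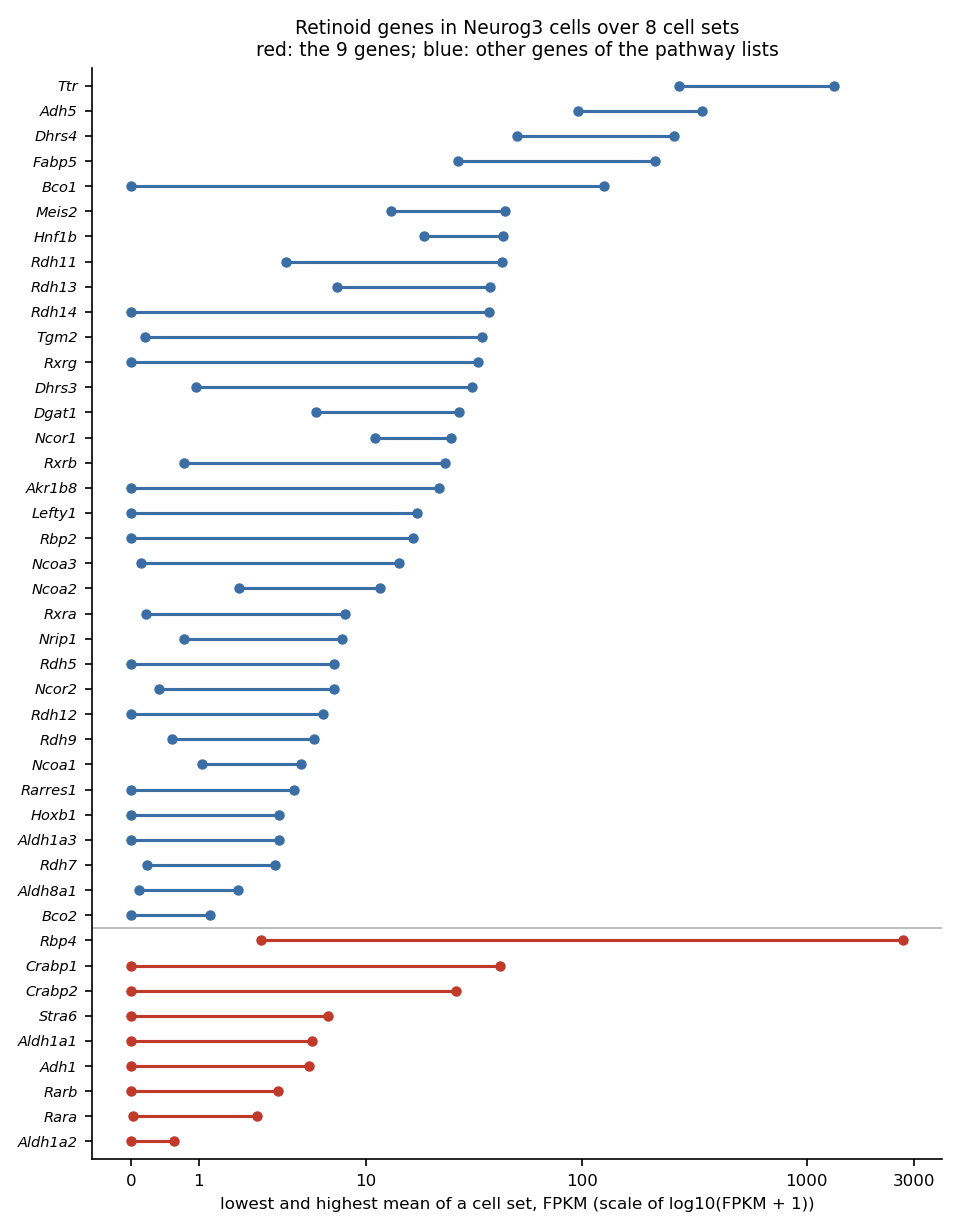
Lowest and highest set mean in Neurog3 cells (FPKM, on a scale of log10(FPKM + 1)) over 8 cell sets for the 9 genes (red) and for other genes of the pathway lists (blue). Rbp4 spans 2.76 to 2684 FPKM and Ttr 269 to 1314 FPKM.

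Ttr was tested in the same contrasts as a gene outside the 9. In insulin against Neurog3 cells, 145 of 15049 genes passed (0.964%; limma), and of 32 genes of the retinoid lists tested, Ttr was higher and Tgm2 lower. Ttr had 2431, 1233 and 1805 FPKM in insulin cells of E14.5 run 2, E15.5 run 1 and E15.5 run 2 against 378, 347 and 291 FPKM in Neurog3 cells, a difference of 2.38 ± 0.22 (SE, n = 3; limma, adjusted p = 0.0208). Tgm2, the transglutaminase gene known to respond to retinoic acid, differed by -4.33 ± 0.57 (limma, adjusted p = 0.0391), lower in 3 of 3 sets. The 32 genes had a median difference of 0.02. Dhrs3 differed by -3.06 (adjusted p = 0.149) and Rxra by 1.3 (adjusted p = 0.527). Ttr stayed past the threshold in 6 of 9 alternatives (adjusted p from 3.44e-08 to 0.585) and Tgm2 in 4 of 9 (0.000239 to 0.728).

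In glucagon against Neurog3 cells, 39 of 15455 genes passed (0.252%; limma), and of 31 retinoid genes tested Ttr alone did. It had 1947, 1399, 3142, 2555 and 3486 FPKM in glucagon cells and 421, 647, 674, 378 and 291 FPKM in Neurog3 cells of the same 5 sets, a difference of 2.37 ± 0.31 (SE; limma, adjusted p = 0.0231) that passed in 4 of 12 alternatives (0.000126 to 0.508). Dhrs3 differed by -2.48 (limma, adjusted p = 0.257), Rxra by 0.18 (adjusted p = 0.938) and Rdh10 by 1.33 (adjusted p = 0.523). Both contrasts share the Neurog3 cells of 2 sets. In insulin against glucagon cells, 43 of 14215 genes passed (0.302%; limma) and 0 of 31 retinoid genes, with 1035 of all genes at an unadjusted p under 0.05. Here the largest differences, of Ppard at 2.63 and Rdh1 at 1.65, had adjusted p of 0.718 and 0.845. Cyp26b1 was below the filter of 1 FPKM in every contrast. Among Neurog3 cells, Ttr was at 10 FPKM in 94 of 109 with Rbp4 (86.2%, interval 78.3 to 92.1%) and in 125 of 163 without (76.7%, 69.4 to 82.9%), and all 51 glucagon cells had it. In cells with neither Neurog3 nor a hormone, the counts were 136 of 153 (88.9%) and 49 of 108 (45.4%).

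No gene passed for a slope over days within Neurog3 cells (0% of 15321; limma), with 919 at an unadjusted p under 0.05, and the retinoid genes with the largest slopes, Lefty1 at 0.90 and Tgm2 at 0.85 log2 units per day, had adjusted p of 0.813. In the Fev contrast, 0 of 32 retinoid genes passed, with 2130 of all genes at an unadjusted p under 0.05. Dhrs3 differed by -2.75 ± 0.65 (limma, adjusted p = 0.0837, lower in 5 of 6 sets) and Tgm2 by -2.70 ± 0.64 (adjusted p = 0.0834, lower in 5 of 6). Ttr differed by 0.60 (limma, adjusted p = 0.270) and Rxra by -0.73 (adjusted p = 0.562). In the cycling contrast 0 of 33 passed, the largest differences being -1.99 for Rdh5 (adjusted p = 0.775) and -1.62 for Rbp2 (adjusted p = 0.784).

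Genes whose set and state means followed Rbp4 most closely were named as a description. Over 24 columns of set and state and 6456 genes with a mean of at least 10 FPKM, Pearson's r on the log2 scale was highest for Hsf1 (0.893), Tspan13 (0.868), Uck1 (0.854), Zcrb1 (0.846) and Tusc3 (0.846). The columns share libraries and depth. Ttr ranked 1766 of 6456, at 0.289, and its mean was high in Neurog3 cells of E13.5 run 1 (1314 FPKM), where Rbp4 was at 2.76 FPKM.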

How the data were processed

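Per the submitters' processing notes, reads were aligned with TopHat2 2.0.13 to mm10 and quantified with Cufflinks 2.2.0. The notes and labels name no gene annotation. The authors deposited FPKM per gene and per transcript for each cell, with the number of mapped fragments in the labels. FPKM are not counts, so no count test was used. Of 32913 entries, 107 without an Ensembl gene were left out of the tests.

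Members and gene lists were chosen with earlier results of these data known. Cells were averaged by set (day and run) and state, with at least 5 cells, and log2(mean FPKM + 1) was fitted with limma 3.58.1 (R 4.3.3) with cell set as a block, an intensity trend, two-sided tests and Benjamini-Hochberg adjustment over all genes with a mean of at least 1 FPKM. The pseudocount of 1 understates changes of low genes. The day slope had day and run as terms. A difference is on this log2 scale, with limma's SE. The labels name no animals, so p-values measure the spread between cell sets only. Named genes were the 9 members, Ttr, Dhrs3, Rdh10, Cyp26b1 and Rxra, and in each contrast up to 6 list genes past the threshold or else the 2 with the largest difference; Adh5, Dhrs4, Fabp5, Meis2, Cyp26a1, Cyp26c1 and Aldh1a7 were named after their values were seen. 1 gene that the rule also names is counted in the lists and not reported here. Alternatives were a pseudocount of 0.1, no filter on low values, the mean of log2 per cell, other state thresholds, at least 300000 fragments per cell, leaving out sets, and no block. The glucagon against Neurog3, Fev and cycling contrasts each held only 1 of E12.5 run 1 and E13.5 run 1. There, leaving out both repeats the fit without that 1 set, and the repeat is included in the counts of alternatives. Cells were sorted singly into wells, and whether a well held more than 1 cell was not tested. The fits were tested on simulated data. Python 3.11.15, pandas 2.3.3, numpy 2.4.6, scipy 1.17.1 and matplotlib 3.10.9 made the descriptions, intervals and plots.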

Additional observations from a re-analysis of the deposited data

Results flagged for a closer look

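In glucagon against Neurog3 cells, the Crabp1 difference of E12.5 run 1 was -4.41 on the log2 scale, far below the other 4 sets, because 3 of 7 Neurog3 cells there had the gene and 0 of 5 glucagon cells did. In Fev-high against Fev-low Neurog3 cells, the Aldh1a1 difference of E14.5 run 2 was 3.86, far above the other 5 sets. It comes from a set in which 1 Neurog3 cell held 225 FPKM. In all, 14 groups of set differences were looked at for a set far from the others. The rule marks about 1 group in 20 by chance where values are normally distributed. Some of these differences were exactly 0 or came from single cells, so that rate need not hold here.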

How the results depend on the processing

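Counts of genes past the threshold moved with the processing. Of 128 recomputed counts, 77 stayed within 1.5 times. For insulin against Neurog3 cells, the 145 genes became 11 with no filter on low values, 1523 with the mean of log2 per cell and 1 with the other state thresholds (hormones at 10 FPKM, Neurog3 at 30 FPKM), and 32 (without E15.5 run 1) to 191 when each set was left out; of the retinoid lists 0, 4, 0 and 0 to 1 passed. For glucagon cells, the 39 became 2, 229, 2 and, with at least 300000 fragments, 5, and 4 (without E14.5 run 2) to 74 with each set left out; Ttr was lost with no filter, with the other thresholds, with 300000 fragments and without E12.5 run 1 and E13.5 run 1 (0 genes), and 0 to 1 passed with each set left out. For insulin against glucagon cells, the 43 became 202 with no filter, 176 (1 retinoid gene) and 3. In the Fev contrast the 203 became 45, 839, 19 and, without E12.5 run 1 and E13.5 run 1, 91, and 32 (without E14.5 run 1) to 157 with each set left out; the retinoid lists gave 5 genes with the mean of log2 per cell (among them Meis2, higher, and Tgm2, Fabp5 and Dhrs3, lower), 1 with the other thresholds and 0 to 1 with each set left out. In the cycling contrast the 10 became 2, 1, 114 with 300000 fragments, 25 without the 2 sets and 11 to 25 with each set left out. Without the replicate block (the pairing of states within a set), the counts were 133, 23, 11, 123 and 11 in the same order of contrasts.

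Of 103 recomputed differences of members in the tested contrasts, 91 kept their direction and none passed the threshold. Fev-high against Fev-low: Rbp4 turned to 0.98 with the mean of log2 per cell; Adh1 turned to -0.68 with a pseudocount of 0.1, -1.60 with the other thresholds and -0.47 without E12.5 run 1 and E13.5 run 1, and ranged from -0.47 to 0.62 with each set left out; Aldh1a1 turned to -0.21 with a pseudocount of 0.1 and -0.011 with the mean of log2 per cell. Cycling: Rbp4 ranged from -0.43 to 1.86 and Stra6 from -1.36 to 0.53 with each set left out, and Stra6 was 0.21 with 300000 fragments and 0.53 without E12.5 run 1 and E13.5 run 1. The adjusted p of Crabp2 ranged from 0.0986 to 0.509 and that of Stra6 from 0.102 to 0.47 in the Fev contrast. Across states and days 168 of 182 member values kept their sign. The day slope within Neurog3 cells accounted for 12 of the 14 that did not: that of Stra6, 0.06, changed in 8 alternatives (-0.19 to -0.03), that of Rara, -0.01, in 2 (0.02 with no run term, 0.17 without E15.5 run 1), and that of Rbp4 in 2 (-0.14 with the mean of log2 per cell, -0.02 without E15.5 run 1). The other 2 were Crabp2 in glucagon against Neurog3 cells, which went from -0.50 to 0.08 with the mean of log2 per cell and to 0.09 without E14.5 run 1. The cause was not tested for any of these. At the median depth 1 fragment on the main Rbp4 transcript equals 1.82 FPKM, so levels of 1 to 10 FPKM, held by 61 of 272 Neurog3 cells, rest on few fragments. In insulin against glucagon cells, leaving out a set or requiring 300000 fragments left no residual degrees of freedom, so no test was made, and the cycling contrast had no value with the other thresholds.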

Other observations

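Among the Neurog3 cells, 16 held ghrelin (Ghrl) at 100 FPKM or more, a split made after the values were seen and given with no test. Rbp4 was at 10 FPKM or more in 14 of these 16 cells (87.5%, exact binomial interval 61.7 to 98.4%) and in 95 of the other 256. Its set means in Ghrl cells were 45 and 2750 FPKM at E13.5, 6162 and 146 FPKM at E14.5, and 19113 and 5259 FPKM at E15.5, from 2 to 4 cells a set. In the Neurog3 cells without Ghrl at that level they were 0.345, 24.1, 458, 99.4, 1137 and 2523 FPKM. The Ghrl cells were higher in 6 of 6 sets. None of the 16 cells had Crabp1, Crabp2, Adh1 or Stra6 at 10 FPKM or more, which allows a share of up to 18.8% for each.

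Of the 63 cells left out for low depth or few genes, 19 had Rbp4 at 10 FPKM or more.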
